A study of Mus musculus with 6 samples.

Results

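B cell and plasma cell genes were examined in abdominal fat after intestinal bypass surgery. The set comprises 31 genes named by symbol, known as markers or regulators of B lineage cells, and the rule that defines it uses no measured difference. Each was looked up among the probes by the gene symbol that the scanner files give, and the probe with the highest mean signal stood for the gene. Of the 31 genes, 29 matched a probe (39 probes in all, with over 1 probe for 9 genes), out of 18447 genes tested. Ighm, which encodes the heavy chain of IgM, and Ciita2 matched no probe by symbol and have no value here.

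The study measured RNA on 6 arrays of 1 colour, 3 labelled DJB and 3 labelled Sham, from C57BL/6 mice. DJB is duodenal-jejunal bypass, an operation that reroutes the small intestine; here it had a biliopancreatic limb of 5 cm and a Roux limb of 4 cm. Sham mice had the same incision, and their intestine was cut and sewn back in place. Both groups were put on high-fat food at 6 weeks of age and were assigned at random to an operation after 12 weeks of it, with buprenorphine given for the bypass. The fat depot, the sex, the time between operation and sampling, and whether each array holds the RNA of 1 animal or of several are not given in the sources used here. The p-values therefore measure the spread between these samples, which may be partly technical.

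B cells detect antigen with a surface immunoglobulin that signals through the Cd79a and Cd79b chains, and kinases and adaptors such as Blk, Blnk and Bank1 carry the signal onward. After activation some become plasma cells, which secrete antibody under the control of Irf4, Prdm1 and Xbp1. Fat tissue holds B cells both scattered in its stroma and gathered in lymphoid clusters, and some depots contain or adjoin lymph nodes.

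All values below are log2 processed signals relative to the 75th percentile of the same array, and each difference is DJB minus Sham with its standard error from limma. Since probes differ in their response, a value is compared across arrays and not between genes. The adipocyte markers checked, Adipoq, Plin1 and Fabp4 among them, were above background on all 6 arrays, as were 26 of the 29 B lineage genes. The 75th percentile of the signal lay between 132 and 165.3 on the DJB arrays and between 175.8 and 183.73 on the Sham arrays. Between 62.58% and 64.87% of probes were well above background on DJB arrays, against 64.67% to 68.8% on Sham arrays. In a bulk tissue, fewer cells of a type and less RNA per cell cannot be told apart. DJB-3 and Sham-2 shared a slide, and the other 4 arrays another.

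Ms4a1 (CD20), Fcmr, Jchain, Ly6d, Mzb1 and Fcer2a had the lowest differences, from -2.79 to -2.38, and Cd180 and Cd37 the highest, 0.71 and 0.7. For the genes of lowest difference, arrays of 1 group differed widely. None of the 29 genes passed an adjusted p of 0.05, where 7.54% of all tested genes did (6.1% as lower in DJB, 1.43% as higher). Without Sham-3, 2 genes passed, where 6.65% of all tested genes did, and without DJB-3, 1 passed, where 5.89% did. By limma's unadjusted p, 13 genes were under 0.05 (33.5% of all tested genes), 12 of them with the lower mean in DJB (20.1%) and 1 with the higher (13.4%). The smallest adjusted p was 0.0661, for Fcrla. The difference was below 0 for 22 genes and above 0 for 7, with a median of -0.75 and a range of -2.79 to 0.71. With normexp background correction, which added an offset of 50 to every signal, the median was -0.137. Over all tested genes the median difference was 0.00 and 49.7% were below 0. For 13 of the 29 genes the difference was below -1, which was the case for 11.8% of all tested genes.

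The 3 DJB arrays lay wholly below the 3 Sham arrays for 3 genes, Blk, Fcrla and H2-DMb2, and wholly above them for 2, Cd37 and Tcl1, where 22.2% of all tested genes were wholly lower and 19.8% wholly higher. The groups overlapped for the other 24 genes, and did not overlap for 42% of all tested genes. Without DJB-3 the number wholly lower was 14, against 26.1% of all tested genes, and without Sham-3 it was 16, against 28.4%. Within each of the 2 slides, every DJB array was below every Sham array for 14 genes (26% of all tested genes), and above it for 3 (25.2%). The 14 were Cd79a, Cd79b, Ms4a1, Blk, Fcmr, Fcer2a, Fcrla, Pou2af1, Jchain, Mzb1, Vpreb3, Spib, Ly6d and H2-DMb2. Slide 2 holds 1 array a group. With slide as a block in limma, none of the 29 passed, and 237 of all 18447 tested genes did. The difference of Cd79b then had a standard error of 0.39 (adjusted p = 0.0731), and that of Fcmr one of 0.53 (adjusted p = 0.0738). The spread within groups was wide: the median SD over the 29 genes was 0.60 among DJB arrays and 0.47 among Sham arrays, against 0.21 and 0.14 over all tested genes. The plot of differences by role shows wide standard errors at the genes of lowest difference.

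**Figure D1:**
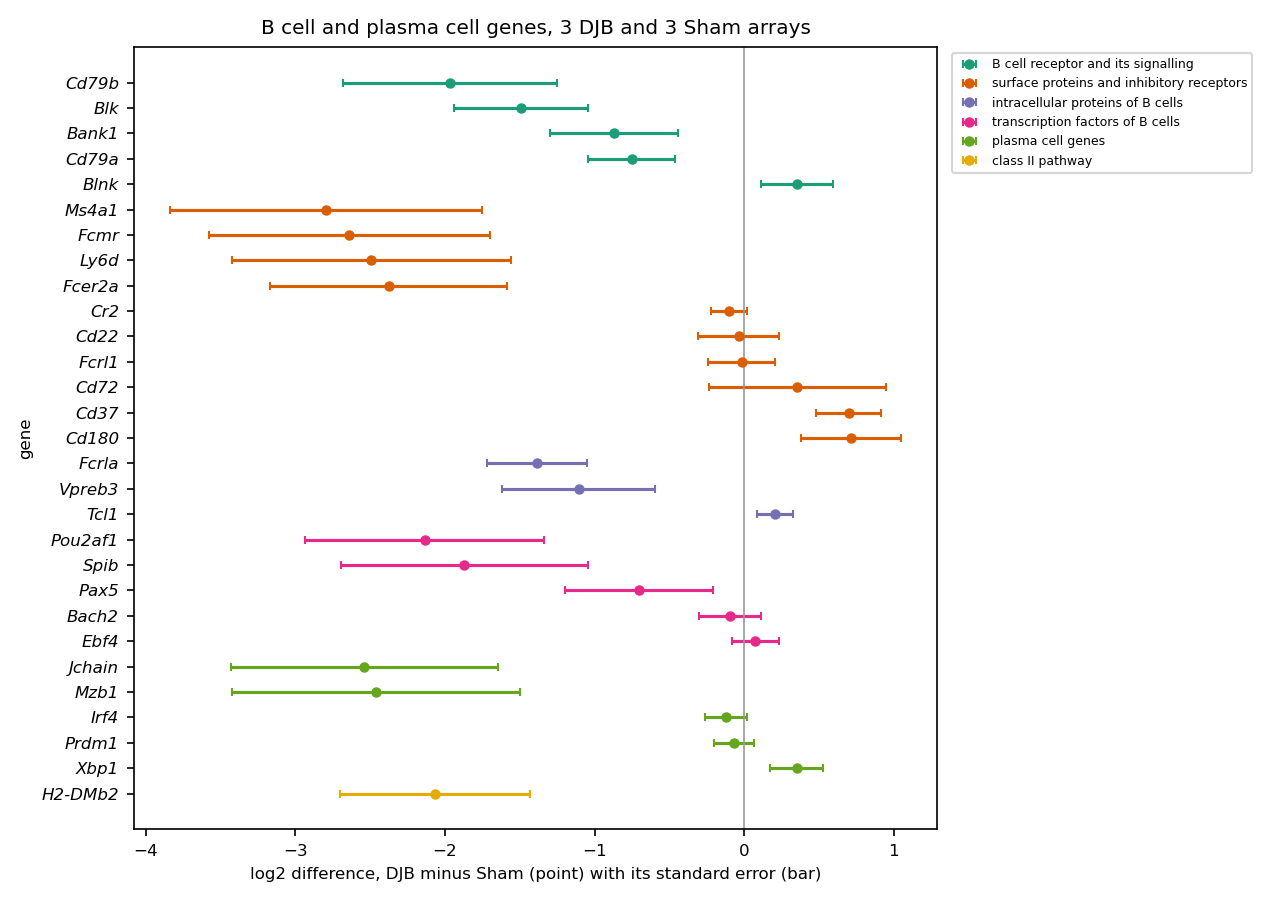
Log2 difference (DJB minus Sham, horizontal axis) of the 29 measured B lineage genes with its standard error as a bar, 3 arrays in each group, coloured by role. Ms4a1 has the lowest difference, -2.79, Cd180 the highest, 0.71, and no gene passed an adjusted p of 0.05.

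Among genes of the B cell receptor, Cd79b, the second signalling chain of the receptor (chr11:106311341-106314562 in GRCm38.p6), had -0.12, 0.53 and 2.12 on the DJB arrays, against 2.97, 3.72 and 1.72 on the Sham arrays, a difference of -1.97 ± 0.71 (SE, adjusted p = 0.142). Cd79a, its partner chain (chr7:24897497-24901858), had -2.69, -2.78 and -2.12 on the DJB arrays, against -1.81, -1.29 and -2.24 on the Sham arrays, with a difference of -0.75 ± 0.29 (SE, adjusted p = 0.157). The difference of Cd79a was -0.23 with normexp and -1.44 by its accession-named probe. For both chains DJB-3 exceeded Sham-3, so the groups overlapped, and Sham-2 was the highest array.

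Blk, a Src family kinase of B cells, gave -6.4, -5.97 and -4.72 on the DJB arrays, against -4.1, -3.89 and -4.62 on the Sham arrays. No DJB array was well above background for this probe and all 3 Sham arrays were. The signal was 1.47-fold lower in DJB where a DJB array below the dimmest detected probe was set to that probe's signal. This figure leaves out the spread between arrays, so it is not a strict bound. With normexp background correction the difference was 0.07. The measured difference was -1.49 ± 0.45 (SE, adjusted p = 0.0983), and every DJB array was below every Sham array. Bank1, a scaffold that B cell receptor signals use, had -0.19, -1.45 and -0.56 on the DJB arrays, against 0.21, 0.72 and -0.52 on the Sham arrays, a difference of -0.87 ± 0.43 (SE, adjusted p = 0.237). Blnk, the adaptor downstream of the receptor, which macrophages also make, had 8.08, 7.32 and 7.33 on the DJB arrays, against 7.0, 7.27 and 7.4 on the Sham arrays, a difference of 0.35 ± 0.24 (SE, adjusted p = 0.379). Sham-2 was the highest array for Bank1 and DJB-1 for Blnk.

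The probes for Cd79a and Blk cross an exon junction, as does that of Pax5, described below, so their letters are shown as what was measured. The 60 bases of each are given 5′ to 3′ as deposited, in lower case, with no base singled out. Their genomic positions in the mm9 build of the files are chr7:25684353-25684610 (plus strand) for Cd79a, chr14:63997333-63998470 (minus strand) for Blk and chr4:44550354-44582908 (minus strand) for Pax5.
Cd79a probe: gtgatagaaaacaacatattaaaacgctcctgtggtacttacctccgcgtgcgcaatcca
Blk probe: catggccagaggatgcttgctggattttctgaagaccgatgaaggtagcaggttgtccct
Pax5 probe: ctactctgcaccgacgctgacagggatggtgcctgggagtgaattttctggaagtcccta

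Of the surface proteins, 4 had differences below -2. Ms4a1, which encodes CD20 (chr19:11249679-11266149), had -2.85, -2.7 and 0.33 on the DJB arrays, against 1.46, 2.16 and -0.47 on the Sham arrays, a difference of -2.79 ± 1.04 (SE, adjusted p = 0.149). The receptor for IgM, Fcmr, had -2.84, -1.97 and 0.23 on the DJB arrays, against 1.4, 2.21 and -0.27 on the Sham arrays, and the difference was -2.64 ± 0.94 (SE, adjusted p = 0.136). Fcer2a, the low-affinity IgE receptor CD23, was measured at -4.43, -3.36 and -1.84 on the DJB arrays, against -0.68, 0.18 and -2.0 on the Sham arrays, a difference of -2.38 ± 0.79 (SE, adjusted p = 0.121). With normexp the difference was -1.78 for Ms4a1 and -0.96 for Fcer2a. In all 3 genes DJB-1 and DJB-2 were the lowest arrays and DJB-3 lay above Sham-3. Ly6d, a surface marker of early B lineage commitment, had -1.72, -1.12 and 1.21 on the DJB arrays, against 2.91, 2.45 and 0.49 on the Sham arrays, a difference of -2.49 ± 0.93 (SE, adjusted p = 0.149), with Sham-1 highest.

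The remaining surface receptors differed less. Cd37, a tetraspanin of B cells, had 3.68, 2.98 and 3.26 on the DJB arrays, against 2.36, 2.65 and 2.82 on the Sham arrays, a difference of 0.7 ± 0.22 (SE, adjusted p = 0.107), with every DJB array above every Sham array. Cd180, a Toll-like receptor homologue found on B cells and macrophages, had 1.35, 0.21 and 0.46 on the DJB arrays, against -0.41, -0.01 and 0.3 on the Sham arrays, a difference of 0.71 ± 0.34 (SE, adjusted p = 0.221), and DJB-2 lay below Sham-3. The inhibitory receptors differed by less than their standard errors. Cd72 had 4.48, 2.11 and 3.05 on the DJB arrays, against 2.46, 2.8 and 3.33 on the Sham arrays, a difference of 0.35 ± 0.59 (SE, adjusted p = 0.729). For Cd22, the sialic acid-binding receptor, the values were 0.19, -0.61 and 0.13 on the DJB arrays, against -0.31, 0.29 and -0.16 on the Sham arrays, a difference of -0.04 ± 0.27 (SE, adjusted p = 0.942). Both inhibitory receptors overlapped between the groups and were lowest on DJB-2. Fcrl1, an Fc receptor-like protein, had -1.92, -1.79 and -1.56 on the DJB arrays, against -1.72, -1.34 and -2.15 on the Sham arrays, a difference of -0.02 ± 0.23 (SE, adjusted p = 0.967).

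Cr2, complement receptor 2, has 2 probes that differed in their pattern, so both are printed. The probe with the higher signal, at chr1:196989549-196989608 of mm9, had -1.74, -1.54 and -1.82 on the DJB arrays, against -1.54, -1.66 and -1.58 on the Sham arrays, a difference of -0.1 ± 0.12 (SE, adjusted p = 0.606). The other, at chr1:196967371-196967430, had -5.41, -6.73 and -2.87 on the DJB arrays, against -2.32, -1.63 and -4.36 on the Sham arrays, a difference of -2.23 ± 1.12 (SE, adjusted p = 0.247), and was well above background on 1 DJB array and 3 Sham arrays. The second probe was highest on Sham-2 and Sham-1, as Ms4a1 and Fcmr were, and the first spanned a narrow range with no such order. Both are given 5′ to 3′ in lower case with no base singled out, and both lie on the minus strand of chromosome 1.
Cr2 probe of higher signal: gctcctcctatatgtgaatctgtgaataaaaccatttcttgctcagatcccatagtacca
Cr2 other probe: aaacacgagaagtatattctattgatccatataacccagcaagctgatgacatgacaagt

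The 3 intracellular proteins of B cells were measured. Fcrla, an Fc receptor-like protein kept inside the cell (chr1:170917594-170932216), had -1.47, -2.1 and -1.49 on the DJB arrays, against -0.23, 0.25 and -0.93 on the Sham arrays, a difference of -1.39 ± 0.33 (SE, adjusted p = 0.0661), with every DJB array below every Sham array. Its adjusted p ran from 0.039 (trended robust prior) to 0.2 (without Sham-1) over the alternatives, and passed 0.05 in 4 of them. With normexp the difference was -0.79. Vpreb3, a pre-B cell protein of the endoplasmic reticulum, had -1.65, -0.89 and -0.14 on the DJB arrays, against 0.48, 0.82 and -0.66 on the Sham arrays, a difference of -1.11 ± 0.51 (SE, adjusted p = 0.214), with DJB-3 above Sham-3. A second Vpreb3 probe gave -0.81, -0.8 and -0.81 on the DJB arrays, against -0.45, -0.4 and -0.89 on the Sham arrays, a difference of -0.22 ± 0.16 (SE, adjusted p = 0.397). Tcl1, a cofactor of the Akt kinase, had -1.16, -1.09 and -1.3 on the DJB arrays, against -1.33, -1.52 and -1.31 on the Sham arrays, a difference of 0.21 ± 0.12 (SE, adjusted p = 0.309), with the DJB arrays all above the Sham arrays.

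Among transcription factors, Pou2af1, a coactivator that acts with octamer-binding proteins, had -1.77, -0.85 and 0.99 on the DJB arrays, against 1.74, 2.49 and 0.54 on the Sham arrays, a difference of -2.13 ± 0.8 (SE, adjusted p = 0.149). Spib, an Ets family factor, had -3.18, -2.82 and -0.68 on the DJB arrays, against 0.03, 0.55 and -1.65 on the Sham arrays, a difference of -1.87 ± 0.83 (SE, adjusted p = 0.199), which was -0.97 with normexp. Sham-2 was the highest array for both, and DJB-3 lay above Sham-3. Pax5, which maintains B cell identity, had -5.19, -4.43 and -4.67 on the DJB arrays, against -4.28, -2.99 and -4.91 on the Sham arrays, a difference of -0.7 ± 0.5 (SE, adjusted p = 0.394), and was well above background on 1 DJB array and 3 Sham arrays. Bach2, a repressor that holds back plasma cell differentiation, had 1.07, 1.66 and 1.54 on the DJB arrays, against 1.26, 1.76 and 1.53 on the Sham arrays, a difference of -0.1 ± 0.21 (SE, adjusted p = 0.79). Ebf4, of the early B cell factor family, had -2.94, -2.52 and -2.73 on the DJB arrays, against -2.61, -2.87 and -2.93 on the Sham arrays, a difference of 0.07 ± 0.16 (SE, adjusted p = 0.792). For Bach2 and Ebf4 the arrays of the 2 groups interleaved by these probes. By the accession-named probe of Ebf4 every DJB array was below every Sham array, with a difference of -0.47 ± 0.14 (SE, adjusted p = 0.0987).

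Of the plasma cell genes, Jchain, which joins IgM and IgA into polymers (chr5:88519809-88527897), had 1.28, 2.7 and 4.75 on the DJB arrays, against 5.66, 6.13 and 4.56 on the Sham arrays, a difference of -2.54 ± 0.89 (SE, adjusted p = 0.133). Mzb1, an endoplasmic reticulum protein that aids antibody assembly, had -2.61, -1.5 and 0.49 on the DJB arrays, against 1.55, 2.45 and -0.22 on the Sham arrays, a difference of -2.46 ± 0.96 (SE, adjusted p = 0.161). Both were lowest on DJB-1 and highest on Sham-2. The regulators of plasma cell fate differed less. Prdm1 had 0.11, 0.13 and 0.19 on the DJB arrays, against -0.01, 0.32 and 0.34 on the Sham arrays, a difference of -0.07 ± 0.13 (SE, adjusted p = 0.76). Irf4 had -0.8, -0.72 and -0.77 on the DJB arrays, against -0.89, -0.46 and -0.58 on the Sham arrays, a difference of -0.12 ± 0.14 (SE, adjusted p = 0.607). Xbp1, which expands the secretory pathway in many cell types, had 4.23, 4.45 and 4.81 on the DJB arrays, against 4.01, 4.26 and 4.17 on the Sham arrays, a difference of 0.35 ± 0.18 (SE, adjusted p = 0.247). By these probes none of these regulators separated the groups. By the accession-named probe of Xbp1 every DJB array was above every Sham array, with a difference of 0.22 ± 0.11 (SE, adjusted p = 0.234).

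H2-DMb2, a chain of the H2-DM protein that loads peptides onto class II molecules (chr17:34143229-34151553), had -4.84, -3.76 and -3.25 on the DJB arrays, against -1.28, -1.23 and -3.14 on the Sham arrays, a difference of -2.07 ± 0.63 (SE, adjusted p = 0.102). Every DJB array was below every Sham array, and Sham-3 lay close to DJB-3. It was well above background on 2 DJB arrays and 3 Sham arrays. The difference was -0.49 with normexp and -0.96 by the accession-named probe.

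Several genes shared an order of arrays. For 9 of the 29, Cd79b, Ms4a1, Fcmr, Fcer2a, Pou2af1, Jchain, Mzb1, Vpreb3 and Spib, the signal was highest on Sham-2, followed by Sham-1, DJB-3, Sham-3, DJB-2 and DJB-1. This order was picked after the values were seen and carries no test. With every gene's probe chosen by RefSeq symbol, which can be another probe, it was found in 48 of 18441 tested genes with 6 values (0.26%), 8 of them among the 29. The 9 genes spanned 2.47 to 5.06 over the 6 arrays, and their differences lay between -2.79 and -1.11 with adjusted p of 0.121 to 0.214. The order itself places the DJB mean below the Sham mean.

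Across all 29 genes, Sham-2 was the highest array for 19 (7.27% of all tested genes) and DJB-1 the lowest for 15 (22.8%). DJB-3, Sham-1 and Sham-2 were the 3 highest arrays for 12 genes (3.18%), and DJB-1 and DJB-2 the 2 lowest for 13 (14.5%). DJB-3 lay above Sham-3 in 20 of the 29 genes, against 38.3% of all tested genes. Within slide 1 the median difference was -0.67 and within slide 2, with 1 array a group, -0.84.

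**Figure D2:**
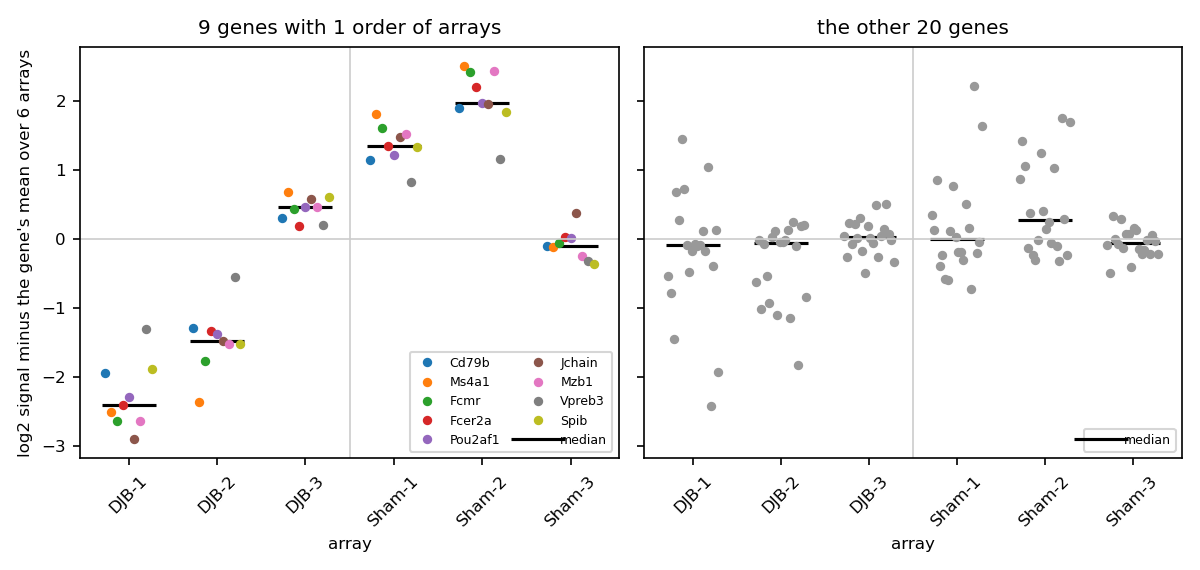
Log2 signal of each gene minus its mean over 6 arrays (vertical axis), by array, for the 9 genes with the shared order (left, coloured by gene) and the other 20 (right, grey), with the median of each array as a black line. In the left panel DJB-1 and DJB-2 lie below the gene's mean, and Sham-1 and Sham-2 above it.

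Most genes have a second probe on the array, named by a RefSeq accession and not used by the rule that chose the first. Of 27 such probes 25 were tested, and the sign of the difference matched that of the first probe for 22. Of the 25, 18 were lower in DJB, the median difference was -1.02, and none was called. For Blk the second probe, above background on all arrays, had -1.47, -0.87 and -0.31 on the DJB arrays, against 0.4, 1.13 and 0.07 on the Sham arrays, a difference of -1.42 ± 0.38 (SE, adjusted p = 0.0793), again with no overlap. Jchain's second probe, well above background on 2 DJB arrays and 3 Sham arrays, had -6.97, -4.36 and -2.75 on the DJB arrays, against -1.06, -0.2 and -2.22 on the Sham arrays, a difference of -3.53 ± 1.09. The shared order of arrays held for 8 of the 27 second probes, 7 of them for genes whose first probe also had it. The remaining probe was that of Pax5, which was not tested and was well above background on no DJB array and on 2 Sham arrays. Both probes read the same RNA samples, so they are no separate replicates. Another 9 probes named by genomic intervals lie inside 6 of the genes. Of these, 8 were tested and none was called.

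**Figure D3:**
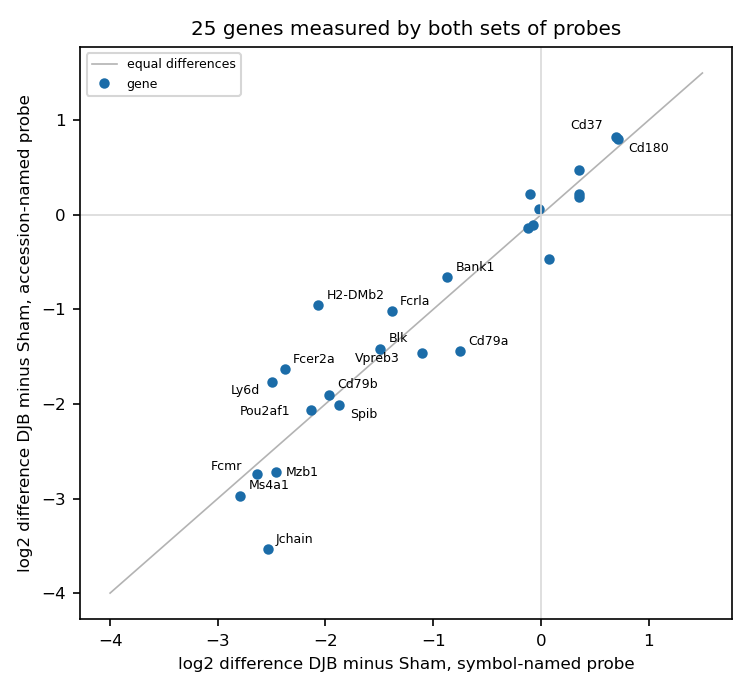
Log2 difference (DJB minus Sham) by the first, symbol-named probe (horizontal) and by the accession-named probe (vertical) for 25 genes, with the line of equal differences. Jchain differed by -2.54 and -3.53, and Ebf4 and Bach2 lie on opposite sides of 0.

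Octamer and early B cell factor motifs are features of many B cell promoters, so the 250 bases before the start were searched for the 24 genes that the RefSeq promoter table (GRCm38.p6) holds. The octamer ATTTGCAT, on either strand, was found in Vpreb3 and Blnk, 2 of 24 genes, where 1.6% of the 32851 promoters held it. The early B cell factor motif, TCCC and GGGA with any 2 bases between them, was found in Cd22, where 0.779% of promoters held it. The E-box CAGGTG was found in 11 genes, where 17.2% of promoters held it. A gene was counted if any of its promoters matched, and Fcer2a and Cd180 have multiple promoters, whereas the shares are per promoter. The 3 sequences below hold the first 2 motifs, and capitals mark every match, with an E-box on the reverse strand written as CACCTG. Vpreb3 (chr10:75948050-75948299, plus strand) had a difference of -1.11, Blnk (chr19:40994222-40994471, minus strand) one of 0.35 and Cd22 (chr7:30879029-30879278, minus strand) one of -0.04. The 2 genes with the octamer had differences of opposite sign, and a match is a description of letters only.
Vpreb3: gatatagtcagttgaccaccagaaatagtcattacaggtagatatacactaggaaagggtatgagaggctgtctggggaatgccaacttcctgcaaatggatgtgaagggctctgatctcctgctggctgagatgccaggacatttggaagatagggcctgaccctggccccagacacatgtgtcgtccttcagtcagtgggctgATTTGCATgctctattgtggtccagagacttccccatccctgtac
Blnk: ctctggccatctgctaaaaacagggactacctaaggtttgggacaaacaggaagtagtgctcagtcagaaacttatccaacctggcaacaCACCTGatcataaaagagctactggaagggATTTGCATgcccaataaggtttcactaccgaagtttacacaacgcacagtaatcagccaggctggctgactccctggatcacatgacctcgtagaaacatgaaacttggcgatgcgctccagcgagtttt
Cd22: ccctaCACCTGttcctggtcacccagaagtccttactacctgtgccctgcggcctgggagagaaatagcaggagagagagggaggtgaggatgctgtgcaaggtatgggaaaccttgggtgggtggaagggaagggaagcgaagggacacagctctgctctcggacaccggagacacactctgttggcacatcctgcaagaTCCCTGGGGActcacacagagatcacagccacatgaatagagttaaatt

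Other genes of the pathway were read from lists by the same rule. In B cell receptor signalling, 18 further genes had a median difference of 0.46. Prkcb, a kinase downstream of the receptor and used by other leukocytes, rose, with 5.18, 4.77 and 4.87 on the DJB arrays, against 3.37, 4.0 and 3.94 on the Sham arrays, a difference of 1.17 ± 0.21 (SE, adjusted p = 0.0416). No other of the 18 passed.

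Among 17 genes of B cell survival and positioning the median difference was -1.16, with 1 call in each direction. Tnfrsf17, the receptor BCMA of plasma cells, fell in DJB, with -0.96, -1.38 and -1.16 on the DJB arrays, against -0.2, 0.06 and 0.12 on the Sham arrays, a difference of -1.16 ± 0.16 (SE, adjusted p = 0.0281). Tnfsf13, which encodes its ligand APRIL, rose, with 1.8, 1.54 and 1.53 on the DJB arrays, against 0.37, 0.78 and 0.96 on the Sham arrays, a difference of 0.92 ± 0.18 (SE, adjusted p = 0.0479). For neither gene did the groups overlap. Chosen after their values were seen were Cxcl13, the chemokine that draws B cells into follicles, with -1.49, 0.03 and 1.88 on the DJB arrays, against 3.11, 3.02 and 2.32 on the Sham arrays, a difference of -2.68 ± 0.81 (SE, adjusted p = 0.1), and Tnfrsf13c, the survival receptor BAFF-R, with a difference of -2.89 ± 0.95 (SE, adjusted p = 0.116). DJB-1 was the lowest array for both.

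B cells share class II antigen presentation with macrophages and dendritic cells. Of its 10 genes, 7 were called lower (6.1% of all tested genes) and none higher (1.43%). The median was -0.87, and 9 genes were wholly lower in DJB (22.2% of all tested genes). The remaining gene, Ctss, was wholly higher (19.8%), with a difference of 0.48 ± 0.11 (SE, adjusted p = 0.0641). H2-Eb1 had 1.15, 1.26 and 1.05 on the DJB arrays, against 2.64, 2.79 and 2.82 on the Sham arrays, a difference of -1.6 ± 0.12 (SE, adjusted p = 0.00806). Ciita, the master activator of class II genes, had 1.15, 1.13 and 1.25 on the DJB arrays, against 2.32, 2.33 and 2.22 on the Sham arrays, a difference of -1.11 ± 0.1 (SE, adjusted p = 0.0135). H2-Ob, whose product modulates H2-DM, had -1.31, -1.2 and -0.97 on the DJB arrays, against 0.48, 0.94 and -0.28 on the Sham arrays, a difference of -1.54 ± 0.31 (SE, adjusted p = 0.0488). The other 4 called were H2-Aa, H2-Ab1, H2-DMa and H2-DMb1, with differences between -0.90 and -0.76. The within-group SD of H2-Eb1 was 0.11 among DJB arrays and 0.10 among Sham arrays, against 0.81 and 1.09 for H2-DMb2 by its first probe. By the accession-named probe of H2-DMb2, above background on all arrays, the SD was 0.34 among DJB arrays and 0.35 among Sham arrays.

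Of 11 further B lineage transcription factors only Ebf1, which adipocytes also make, passed, with 1.87, 2.14 and 2.02 on the DJB arrays, against 2.68, 2.55 and 2.81 on the Sham arrays, a difference of -0.67 ± 0.13 (SE, adjusted p = 0.0457). The median over the list was 0.04. Of 13 genes of the secretory pathway, 1 passed: Sdc1, a surface proteoglycan of plasma cells and of epithelial cells, rose with 4.49, 4.19 and 4.15 on the DJB arrays, against 3.17, 3.36 and 3.12 on the Sham arrays, a difference of 1.06 ± 0.14 (SE, adjusted p = 0.0274), and the median was 0.23. None of 9 germinal centre genes passed (median 0.00); the 3 of highest signal, S1pr2, Cd83 and Bcl6, had differences of 0.49, -0.37 and -0.04. Of 13 immunoglobulin genes 11 had no probe by symbol; the surrogate light chain genes Vpreb1 and Igll1 had differences of -0.36 and -0.1, neither called.

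Markers of other cell types also differed between arrays, and their part in the B lineage values was not tested. The median of each list after centring every gene on its mean is given by array. For the 29 genes it was -0.48, -0.62 and 0.18 on the DJB arrays, against 0.35, 1.02 and -0.08 on the Sham arrays. For 18 T cell markers it was -0.38, 0.02 and -0.29 on the DJB arrays, against 0.22, 0.52 and -0.05 on the Sham arrays, and none passed. The difference was below 0 for 14 of the 18 and above 0 for 4, with a median of -0.58. Of the 3 T cell markers of highest signal, Thy1 had a difference of 1.0 ± 0.21 (SE, adjusted p = 0.051), Il7r one of 0.64 ± 0.25 (SE, adjusted p = 0.159) and Lat one of 0.09 ± 0.24 (SE, adjusted p = 0.838). Sham-2 was the highest array in both lists.

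For 12 adipocyte markers the centred median was -1.24, -0.36 and -0.02 on the DJB arrays, against 0.61, 0.30 and 0.62 on the Sham arrays. The difference was below 0 for 11 of the 12, with a median of -1.07. Wholly lower in DJB were 9 of them (22.2% of all tested genes). Past the threshold, 3 fell: Lep (difference -2.96, adjusted p = 0.0435), Pparg (-0.72, adjusted p = 0.0376) and Retn (-1.2, adjusted p = 0.0348). For 12 macrophage markers the centred median was 0.25, 0.26 and 0.27 on the DJB arrays, against -0.48, -0.25 and -0.12 on the Sham arrays. Among these, Itgam (difference 1.23, adjusted p = 0.0306) and Gpnmb (1.06, adjusted p = 0.0282) rose. Of 10 general leukocyte markers only Cd53 passed, with a difference of 1.15 ± 0.16 (SE, adjusted p = 0.0282), and 9 of 10 differences were above 0. Of 7 plasmacytoid dendritic cell markers 1, Pacsin1, fell, with a difference of -1.86 ± 0.3 (SE, adjusted p = 0.0352).

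Of 9 lymph node stroma and high endothelial venule markers none passed, with a median of -0.44. The difference was below 0 for 7 and above 0 for 2. Cxcl13, described above, is also on this list and had its lowest difference, -2.68. The 3 of highest signal were Mfge8, Ccl21a and Ccl19. Ccl21a, a chemokine of lymphoid stroma, had 5.32, 5.3 and 6.95 on the DJB arrays, against 8.23, 8.25 and 6.29 on the Sham arrays, a difference of -1.73 ± 0.69 (SE, adjusted p = 0.165), with the same 3 arrays highest as for the 9 genes. Ccl19 had a difference of -0.8 ± 0.29 (SE, adjusted p = 0.141) and Mfge8 one of -0.02 ± 0.15 (SE, adjusted p = 0.953). The venule markers Glycam1 and Madcam1, also chosen after their values were seen, had differences of -0.03 ± 0.12 (SE, adjusted p = 0.897) and 0.29 ± 0.14 (SE, adjusted p = 0.234). The part of lymph node tissue in the B lineage values was not tested.

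**Figure D4:**
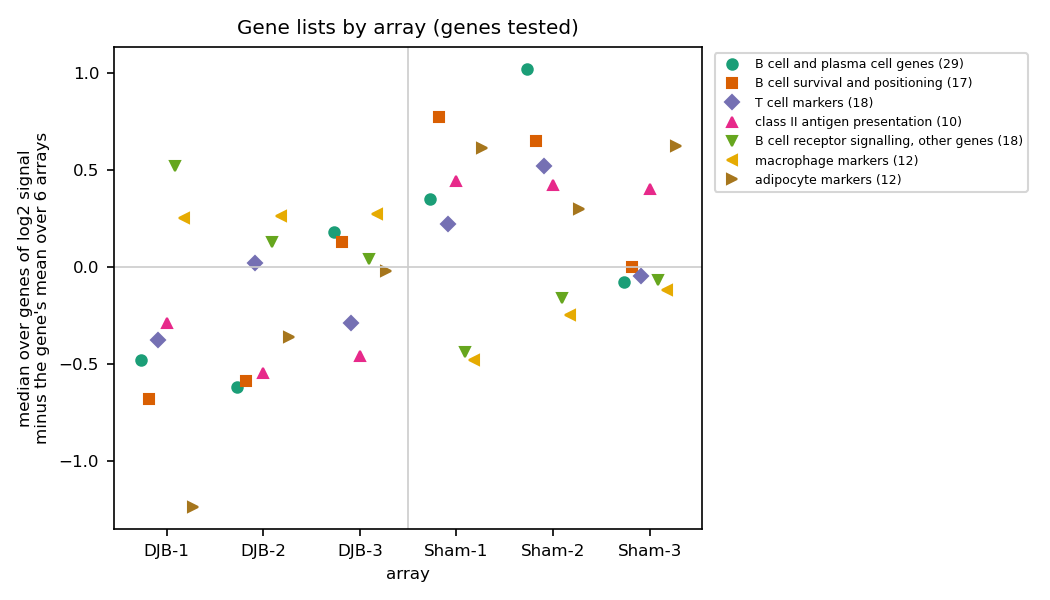
Median over genes of the log2 signal minus each gene's mean over 6 arrays (vertical axis), by array, for the B lineage genes and 6 other lists, with the number of genes tested in the legend. Sham-2 is highest for the B lineage genes (1.02), and the macrophage markers are above 0 on all 3 DJB arrays.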

How the data were processed

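RNA of 3 DJB and 3 Sham samples was measured on arrays of 1 colour, and the number of arrays limits the precision. Per the file headers, the authors quantified the scans with Agilent Feature Extraction 12.0.3.1, and the deposited processed signal is an intensity on a linear scale, background-subtracted. The deposited table of log2 values, with medians of 4.546 to 4.558 per array, is on an unstated scale and was used as an alternative; the submitters' processing notes name limma, with no version given. The design text of the series describes another experiment and was not used.

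Here log2 intensity minus each array's 75th percentile was computed, outlier spots (18 to 25 per array) were dropped, and no probe was saturated. Probes well above background on at least 3 of 6 arrays were tested (99431 of 150305), with limma 3.58.1 in R 4.3.3 (lmFit, eBayes, two-sided, no covariate, prior df 2.26) and Benjamini-Hochberg adjustment over all tested probes at 0.05. Python 3.11.15, pandas 2.3.3 and matplotlib 3.10.9 prepared the values. Genes other than the 31, and all genes where a share of all tested genes is given, were taken by RefSeq symbol, with the tested probe of highest signal. The script was tested on simulated data. The genes and lists were chosen with earlier results of these data known. Named genes were all 31 genes and, of each other list, those past the threshold or else the 3 of highest signal. Outside this rule, 4 genes are said to be chosen after their values were seen. Also outside it, Adipoq, Plin1 and Fabp4 are named as detected adipocyte markers, and Ctss as the class II gene that was not lower. Alternatives covered background correction, scaling, filters, the prior, slide, replicate numbers, probe choice and leaving out each array.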

Additional observations from a re-analysis of the deposited data

How the results depend on the processing

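The median difference of the 29 genes was -0.75 and stayed below 0 under every alternative run. It was -0.137 with normexp, -0.44 among genes above background on all arrays, -1.13 to -0.51 with an array left out, and -1.02 with the accession-named probes, an alternative added after the data were seen. No gene was called in the analysis as reported. One was called with normexp (Fcrla, adjusted p 0.0413), above background on all 6 arrays (Fcrla, 0.0466), with a trended robust prior (Fcrla, 0.039) and without DJB-3 (Blk, 0.0364); 2 were called without Sham-3 (Fcrla, 0.0432, and H2-DMb2, 0.0494), so leave-one-out counts ran from 0 to 2. The number wholly lower in DJB was 3, where 22.2% of all tested genes were. It was 1 with normexp, median scaling, quantile normalization, the authors' deposited values and the filter on all 6 arrays. With accession-named probes it was 6 of 25. With an array left out it ran from 3 to 16: 14 without DJB-3 (26.1% of all tested genes), 16 without Sham-3 (28.4%) and 5 without Sham-1. The number wholly higher was 2, where 19.8% of all tested genes were. It was 1 with the percentile taken over probes above background on all arrays, and 2 to 4 with an array left out (4 without Sham-3). For the other counts no share over all tested genes was computed, so they are not read as results about these genes. With the replicate block the median stayed -0.75 and 0 genes were called; with the slide block likewise. Samples with the same replicate number did not deviate together (correlations of -0.185, -0.117 and -0.295), so the numbers are not taken as a pairing.

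Some differences changed sign. With normexp Pax5 was 0.047, Blk 0.07, Cr2 0.064 and Fcrl1 0.029. The offset added there was 50, where the 75th percentile of the processed signal was 132 to 183.73. Median scaling moved all genes up together, their median to 0.11, against 0.00 as reported, and the differences there are of that shift's size or less: Cd22 was 0.068, Cr2 0.002, Fcrl1 0.087, Prdm1 0.035 and Bach2 0.008. Fcrl1 was 0.042 with quantile normalization and with the authors' values. On slide 1 alone Cd22 was 0.022 and Fcrl1 0.079. With an array left out, Cd22 ran from -0.179 to 0.22, Cd72 from -0.277 (without DJB-1) to 0.904, Fcrl1 from -0.224 to 0.179, Ebf4 from -0.034 to 0.18 and Bach2 from -0.225 to 0.079. With the mean of a gene's probes Fcrl1 was 0.028 and Ebf4 -0.188. With accession-named probes Fcrl1 was 0.062, Ebf4 -0.466 and Bach2 0.22. The cause of these changes of sign was not tested. Over all genes, 3030 were called with normexp, 2920 with the trended robust prior, 237 with the slide block, 210 with no filter on dim probes, 2021 above background on all 6 arrays, 0 with the replicate block, 296 without DJB-1, 66 without DJB-2, 1087 without DJB-3, 44 without Sham-1, 130 without Sham-2 and 1227 without Sham-3, against 1390 as reported.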
